A study of Mus musculus with 23 samples.

Results

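KSL cells are bone marrow cells sorted as c-Kit+ Sca1+ Lineage-, the fraction that holds blood stem cells and their early multipotent progeny. The comparison described here sets 2 Jarid2_KO libraries of KSL cells against 2 Control libraries, all from untransplanted mice 2 months old. They are 4 of the 11 gene-expression samples among the 23 samples of the series, and were chosen by their labels alone: untransplanted (baseline) mice, genotype Jarid2_KO or Control. Gene counts (unique molecular identifiers, UMIs) were summed per library over the cell barcodes that passed 3 limits: 1000 UMIs or more, 500 genes or more, and no more than 10% mitochondrial UMIs. That left 30928 of 32735 barcodes.

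The mice carried Mx1-Cre, a Cre recombinase under an interferon-inducible promoter, and floxed alleles of Jarid2 in the knockout. The labels give Mx1-Cre for the Control libraries too. No induction agent is named in the labels, Mx1-Cre is not limited to blood cells, and the Controls' own Jarid2 and Ezh2 alleles are not given. Each group had 1 male (replicate 1) and 1 female (replicate 2), so n = 2 per group throughout. The titles of the knockout libraries read Control_Jarid2_KO, and their genotype field and library names read Jarid2_KO. Libraries from 1 male and 1 female Ezh2_KO mouse (Mx1-Cre, floxed Ezh2, the same age) entered the fit to estimate the spread, and 5 transplant libraries, sorted as donor KSL cells at 18 weeks from mice given 500000 donor cells beside competitor marrow, served for a second look at the named genes. Those were 1 Control, 2 Ezh2_KO and 2 Jarid2_KO libraries, all with Mx1-Cre and with no sex in the labels.

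The 4 compared libraries held 7162 to 8451 kept cells, 92105257 to 109412617 UMIs, and a median of 10968 to 12007.5 UMIs per cell. Median mitochondrial shares ran from 3.20% to 3.47% over the 6 baseline libraries. Levels are given in CPM, a gene's counts divided by its library's sum and multiplied by a fixed factor. The sum was first multiplied by a scaling factor of the library (TMM), 0.979 to 1.02 at baseline. At 10 CPM, counting error alone is a relative SD of 3.02% to 3.30%. The male and the female library of a group differed by more. Comparing them gave a chi-square of 65.3 per degree of freedom in Control and 36.4 in Jarid2 KO, so no library was a copy of another. These values include any difference by sex, which cannot be told apart from the spread of replicates here. At most 0.358% of barcodes were shared between any 2 baseline libraries. Among defining markers of the sort, Kit was at 271.8 and 265.8 CPM in the male and female Control and at 294.5 and 282.3 CPM in Jarid2 KO, and Ly6a, which encodes Sca1, was at 59.5, 49.1, 68.4 and 52.4 CPM in the same order.

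Jarid2 is an accessory subunit of Polycomb repressive complex 2 (PRC2), the enzyme complex that methylates lysine 27 of histone H3 and so keeps developmental genes silent. Ezh2 and Ezh1 are its alternative catalytic subunits, Eed and Suz12 its scaffold, and Jarid2 helps to bring the complex to chromatin. In blood stem and progenitor cells PRC2 is known for holding back fetal and lineage-foreign genes.

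The promoters of 4 of the genes that changed are printed first, because they differ in CpG content, the base step that PRC2 targets are often rich in. Each is the RefSeq window of 300 bases (250 before to 50 after the start that the promoter table takes for the gene, build GRCm38.p6), 5′ to 3′ on the gene's strand, with every CG step in capitals. The windows are chr10:87007893-87008192 (minus strand) for Stab2, chr8:81342312-81342611 (plus) for Inpp4b, chr12:12941787-12942086 (minus) for Mycn and chr12:95691976-95692275 (plus) for Flrt2. For Stab2, Inpp4b and Flrt2 that start is not the outer end of the gene span given with its values.
Stab2: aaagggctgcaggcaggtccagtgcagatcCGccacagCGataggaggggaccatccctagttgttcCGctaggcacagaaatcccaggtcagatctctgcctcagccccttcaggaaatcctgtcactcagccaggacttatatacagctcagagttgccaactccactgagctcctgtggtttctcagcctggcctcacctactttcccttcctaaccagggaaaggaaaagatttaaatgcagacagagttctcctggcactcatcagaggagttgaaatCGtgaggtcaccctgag
Inpp4b: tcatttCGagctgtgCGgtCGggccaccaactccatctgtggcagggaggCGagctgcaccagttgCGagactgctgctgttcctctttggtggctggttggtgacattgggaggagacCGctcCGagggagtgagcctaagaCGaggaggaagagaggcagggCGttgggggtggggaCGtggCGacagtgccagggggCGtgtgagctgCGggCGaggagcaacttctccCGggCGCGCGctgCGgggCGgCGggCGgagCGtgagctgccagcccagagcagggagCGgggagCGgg
Mycn: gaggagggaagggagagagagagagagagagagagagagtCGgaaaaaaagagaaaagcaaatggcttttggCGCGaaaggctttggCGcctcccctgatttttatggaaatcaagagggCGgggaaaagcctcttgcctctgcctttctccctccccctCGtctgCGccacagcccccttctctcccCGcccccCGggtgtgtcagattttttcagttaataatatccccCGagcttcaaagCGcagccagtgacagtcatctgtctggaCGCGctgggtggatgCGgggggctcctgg
Flrt2: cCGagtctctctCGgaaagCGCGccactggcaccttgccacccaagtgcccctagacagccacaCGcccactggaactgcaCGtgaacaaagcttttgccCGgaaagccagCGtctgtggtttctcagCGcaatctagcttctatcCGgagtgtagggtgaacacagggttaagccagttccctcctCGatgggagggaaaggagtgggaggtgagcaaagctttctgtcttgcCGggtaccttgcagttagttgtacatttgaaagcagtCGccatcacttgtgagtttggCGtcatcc

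The motif searched was CG, which reads the same on both strands. Stab2 has 4 CG steps in its window, a number that 12.1% of tested genes with a window reach at most, and its promoter is CpG-poor. Inpp4b has 25 (67.4% at or below), and Mycn and Flrt2 have 14 each (35.5% at or below). A window was at hand for 71.2% of tested genes, which is too few for a comparison of gene sets, so that check is void. The median over the genes that had one was 20 CG steps.

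Jarid2 itself was read first, as a check of the labels. It stood at 154.8 CPM in the male and 148.3 CPM in the female Control, and at 214.2 and 203.8 CPM in the male and female Jarid2 KO. Both knockout libraries were above both Controls, with a log2 difference of 0.46 (SE 0.05, FDR 0.114 by the edgeR quasi-likelihood test). A 3′ tag library reads the end of the transcript, so a count there does not check an internal deletion, and the floxed part of the gene was not given. Within separate classes of cells, all from the same libraries, Jarid2 was called higher in 8 of 12. Of the 6 core PRC2 genes, 1 stood higher and 2 lower at an unadjusted p under 0.05 (over all tested genes, 6.01% higher and 5.93% lower), and none passed the FDR threshold. Ezh2 stood at 205.4, 192.0, 190.7 and 199.2 CPM (Control male and female, then Jarid2 KO male and female), Suz12 at 146.6, 144.3, 138.8 and 144.7 CPM, and Eed at 57.6, 56.2, 56.7 and 57.3 CPM. Their log2 differences were -0.03, -0.04 and 0.00 with SEs of 0.06, 0.05 and 0.04, and the groups overlapped for each. Ezh1 was at 29.6 and 26.2 CPM in Control and 31.6 and 30.1 CPM in Jarid2 KO (log2 difference 0.15). The histone chaperone genes Rbbp4 and Rbbp7 had log2 differences of -0.12 each and Epop, an accessory subunit gene, one of -0.48, with both Jarid2 KO libraries below both Controls. Cdkn2a, a cell-cycle inhibitor that is a well-known PRC2 target, was near its floor in all 4 libraries (0.202 and 0.145 CPM in Control, 0.130 and 0.0760 CPM in Jarid2 KO), against 9.46 and 9.34 CPM in Ezh2 KO.

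Few genes passed the test across all KSL cells, and every one of them was higher in Jarid2 KO. Of 18357 genes tested, 7 (0.0381%) had a false discovery rate (FDR) under 0.05 by edgeR's quasi-likelihood test with sex as a term, all 7 (0.0381%) higher, and 6 are described here. In summed libraries, a change in the number of cells of a type and a change in RNA per cell cannot be told apart. At an unadjusted p under 0.05 there were 2192 genes (11.9%), split almost evenly into 1104 higher (6.01%) and 1088 lower (5.93%).

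Stab2 encodes stabilin-2, a scavenger receptor that takes up hyaluronan and is best known from sinusoidal endothelium. It stood at 1.48 CPM in the male and 1.62 CPM in the female Control and at 28.7 and 32.4 CPM in Jarid2 KO. The 2 groups lay far apart, with a log2 difference of 4.30 (SE 0.09, edgeR FDR 0.00077). Other endothelial genes were at or near their floor or did not separate: Stab1 was at 0.0213 and 0.0817 CPM in Control and 0.0498 and 0.105 CPM in Jarid2 KO, Kdr at 0.829, 0.944, 0.857 and 0.865 CPM in the same order, and Cdh5 and Lyve1 had too few counts to be tested. Gm16271, a gene model at chr10:86972141-87031885 that overlaps Stab2 (chr10:86841194-87008038), rose alongside it from 0.234 and 0.172 CPM to 3.15 and 2.75 CPM (log2 difference 3.86, edgeR FDR 0.022). How reads were assigned by strand is not given in the sources used here, so the reads of these overlapping genes cannot be told apart. 1700113H08Rik, 50.0 kb beyond Stab2, had a log2 difference of 2.38 (edgeR FDR 0.084), and the gene on the other side of Stab2, Nt5dc3, one of -0.04. Gm16271 and 1700113H08Rik were chosen after their values were seen.

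Icos encodes a co-stimulatory receptor of activated T cells and group 2 innate lymphoid cells (chr1:60960773-61000322). Its level was 2.76 and 2.27 CPM in the male and female Control and 11.8 and 11.7 CPM in Jarid2 KO, a log2 difference of 2.23 (SE 0.14, edgeR FDR 0.030). The related receptor gene Cd28, 187.4 kb away, stood at 1.53, 1.49, 1.52 and 1.84 CPM in the same order, and its groups overlapped. Flrt2 encodes a cell-surface protein of adhesion and axon guidance (chr12:95692006-95785215). It rose from 0.223 and 0.254 CPM to 2.39 and 2.99 CPM (log2 difference 3.49, SE 0.20, edgeR FDR 0.029).

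Inpp4b encodes a phosphatase that removes the 4-phosphate of phosphoinositides and dampens PI3K signalling (chr8:81342266-82134312). It stood at 73.5 and 82.7 CPM in Control and 121.1 and 140.7 CPM in Jarid2 KO, a log2 difference of 0.74 (SE 0.04, edgeR FDR 0.022). Of other phosphatases of the pathway, Inpp5d had a log2 difference of -0.04 (SE 0.05) and Inpp4a one of 0.15 (SE 0.08), and neither was called. Mycn encodes N-Myc, a growth-promoting transcription factor of early progenitors (chr12:12936093-12941836). It rose from 26.4 and 29.1 CPM to 45.7 and 54.1 CPM (log2 difference 0.84, SE 0.04, edgeR FDR 0.022), while Myc stood at 89.2 and 135.3 CPM in Control and 108.2 and 131.2 CPM in Jarid2 KO, with the groups overlapping.

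The count depended on the fit. Without the sex term 1 gene passed (Stab2), without either Jarid2 KO library Stab2 was the 1 of these genes that still passed, and without the female Control it was Stab2 and Gm16271. With likely doublets removed, Flrt2 and Gm16271 no longer passed. The direction depended on the fit too. DESeq2 called 128 genes higher and 142 lower, and edgeR with no filter beyond 1 count called 25 higher and 14 lower.

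**Figure D1:**
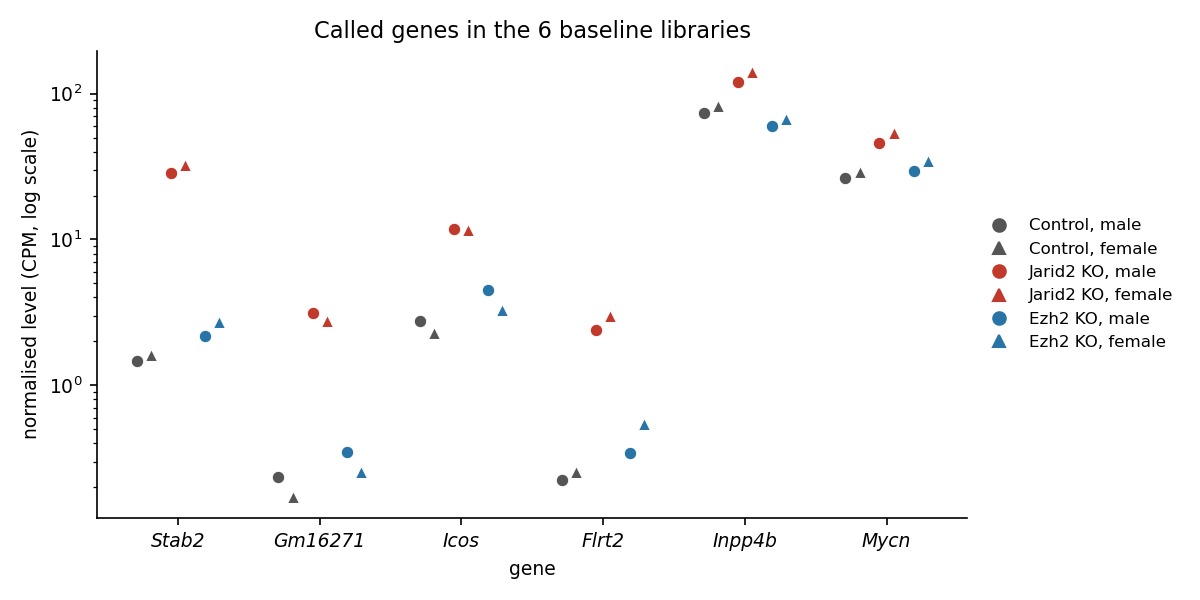
Level of each called gene in the 6 baseline libraries, in CPM on a log axis, with 1 point per library and colours for Control, Jarid2 KO and Ezh2 KO. For each gene both Jarid2 KO points lie above both Control points, from a fitted 1.67-fold for Inpp4b to a fitted 19.7-fold for Stab2.

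Most UMIs of Stab2, Icos and Flrt2 in Jarid2 KO came from 1 small class of cells. Control cells were clustered, and each other cell took its class from the Control cells closest to it. A class was named only by fixed marker genes, with "-like" for the likeness. The innate lymphoid-like class had 13 of 14 detected markers raised, with Skap1, Il1rl1 and Gata3 among its 10 leading genes. It also had Stab2, Inpp4b and 1700113H08Rik among those 10, so the levels of these genes inside the class are a description. Of its other leading genes, Rnf128, a ubiquitin ligase gene, was at 1.72 and 1.13 CPM over all cells in Control and 1.75 and 2.87 CPM in Jarid2 KO, and Pard3, a cell polarity gene, at 1.51 and 0.381 CPM against 1.28 and 0.3326 CPM, so that Pard3 was lower in both pairs. Ccr9, a chemokine receptor gene that is also among the 10, was at 12.7 and 4.35 CPM against 27.6 and 19.1 CPM. These 3 were chosen after their values were seen. Innate lymphoid cells are antigen-receptor-free lymphocytes, and their early forms in marrow can carry Sca1. Class cells were small in RNA, with a median of 3590 UMIs in Control.

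The class made up 1.05% of cells in the male and 0.544% in the female Control (75 and 46 cells), and 3.40% and 3.84% in the male and female Jarid2 KO (265 and 289 cells). The exact 95% binomial intervals ran from 0.825% to 1.31%, from 0.399% to 0.725%, from 3.01% to 3.83% and from 3.41% to 4.30%, and cover counting error only. Ezh2 KO libraries lay with Control at 0.969% and 0.837%. The Jarid2 KO shares were above both Controls, 4.55-fold on the means, and the exact two-sided permutation test over 2 against 2 libraries gave p = 0.3333, the smallest it can give. Of 15 classes, 14 had cells in both Controls, and 3 of those separated the groups in this way: the class without a name that is called cluster 12 was also higher, at 9.31% and 5.73% in Control and 12.8% and 11.4% in Jarid2 KO, and myeloid-like cells were lower, at 5.74% and 8.53% against 5.27% and 3.89%. Myeloid-like shares overlapped when the cells were clustered again without any gene at an unadjusted p under 0.05 (0.349% and 2.13% in Control, 0.540% and 0.637% in Jarid2 KO). Under that clustering the innate lymphoid-like shares were 1.02% and 0.532% in Control and 3.24% and 3.62% in Jarid2 KO. Of all UMIs, the class held 0.308% and 0.189% in Control and 1.19% and 1.399% in Jarid2 KO.

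**Figure D2:**
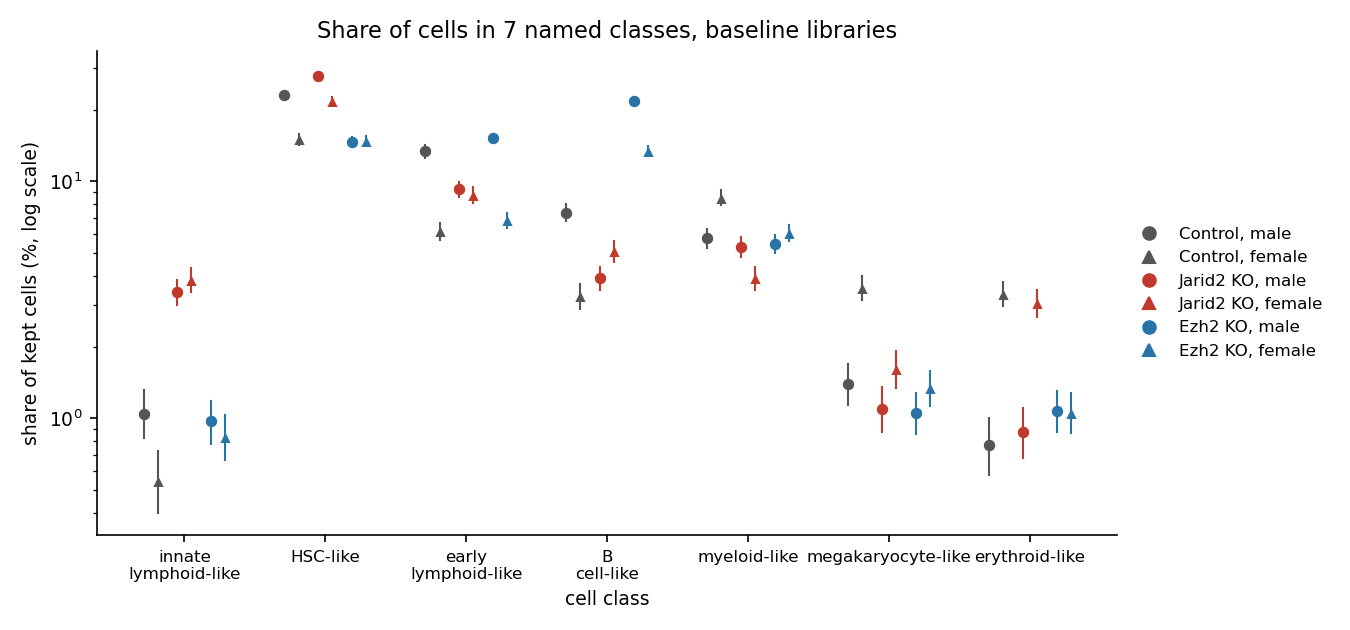
Share of kept cells in 7 named classes for the 6 baseline libraries, in percent on a log axis, with exact 95% binomial intervals as bars. The innate lymphoid-like class sits at 3.40% and 3.84% in Jarid2 KO, above all 4 Control and Ezh2 KO libraries, of which the highest is 1.05%.

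The called genes fell into 3 patterns when their UMIs were split by this class. The split used the first clustering, which did not leave these genes out, so its shares and levels are a description. It was not repeated with the clustering that left out genes at an unadjusted p under 0.05. Levels inside and outside the class are CPM of the UMIs of those cells, without the TMM factor used elsewhere. Stab2, Icos and Flrt2 came mainly from class cells in Jarid2 KO and were also higher per UMI inside the class. Of Stab2 UMIs, 79.1% and 88.8% came from the class in Control and 96.8% and 94.1% in Jarid2 KO. Inside the class Stab2 stood at 388 and 763 CPM of the class's own UMIs in Control and 2339 and 2170 in Jarid2 KO. Outside it, its level was 0.316 and 0.183 CPM in Control and 0.943 and 1.92 CPM in Jarid2 KO. Of Icos UMIs, 28.8% and 30.4% came from the class in Control and 84.2% and 82.6% in Jarid2 KO, and of Flrt2 UMIs 52.4% and 42.9% against 85.8% and 90.2%. Icos went from 264 and 367 CPM inside the class to 834 and 687, with 2.01 and 1.59 CPM outside it in Control and 1.90 and 2.05 CPM in Jarid2 KO. Flrt2 went from 38.8 and 58.0 CPM inside the class (11 and 12 UMIs) to 173 and 192 (206 and 284 UMIs).

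Inpp4b showed a second pattern. Inside the class it stood at 4373 and 4136 CPM in Control and 4501 and 4334 in Jarid2 KO, and outside it at 61.8 and 75.6 CPM against 68.9 and 80.5 CPM. Its share of UMIs from the class was 17.9% and 9.39% in Control and 44.1% and 43.3% in Jarid2 KO. Gata3, the transcription factor that marks type 2 lymphoid fate, stood at 1033 and 947 CPM inside the class in Control and 1056 and 981 in Jarid2 KO.

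Mycn showed the third pattern and lay outside the class. Class cells gave at most 0.611% of its UMIs in any of the 4 libraries, and its level outside was 27.0 and 29.3 CPM in Control against 46.2 and 54.4 CPM in Jarid2 KO.

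**Figure D3:**
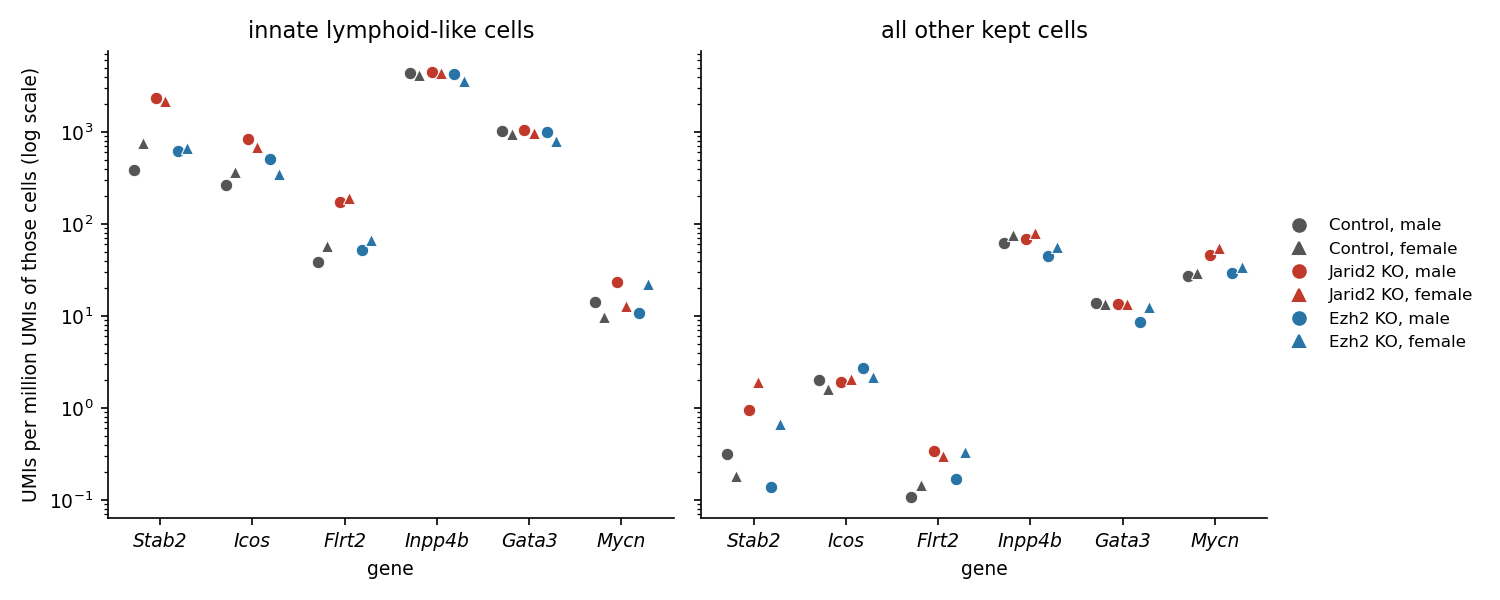
Level of called genes and of lymphoid genes inside and outside the innate lymphoid-like class, in CPM of the UMIs of the cells concerned, on a log axis, with 1 point per library. Inpp4b overlaps between genotypes inside the class (4136 to 4501 CPM), whereas Stab2 separates (388 and 763 against 2339 and 2170). The class is from the clustering that did not leave these genes out.

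With class cells left out of every library, the edgeR test called 0 of the genes, 2128 had an unadjusted p under 0.05, and DESeq2 on all cells called 270. Stab2 then had a log2 difference of 2.42 (edgeR FDR 0.342), Flrt2 of 1.37 (0.354), Icos of 0.17 (0.737), Inpp4b of 0.14 (0.342) and Mycn of 0.86 (0.092). For Mycn the FDR moved while the unadjusted edgeR p hardly did, from 4.9e-06 with class cells to 5.0e-06 without. With the class taken from the clustering without genes at an unadjusted p under 0.05, the log2 fold change of Stab2 was 3.62 and the log2 fold change of Icos 0.52. This removal was added after the data had been seen. A test inside the class, also added after the data had been seen, used the clustering without genes at an unadjusted p under 0.05, so that Stab2, Icos, Flrt2 and Tox did not set which cells it held (at least 45 cells per library). It called 103 of 6167 genes (1.67%), 48 higher and 55 lower, with Stab2 at 1.96 (edgeR FDR 1.8e-07), Flrt2 at 1.85 (0.00026), Icos at 1.31 (0.00019) and Tox at 1.25 (8.7e-05) on the log2 scale, against 0.04 for Inpp4b (0.949). The values of T and NK cell genes that follow are over all kept cells, not inside the class. Of T cell receptor complex genes, Cd3e was at 0.128 and 0.0272 CPM in Control and 0.269 and 0.105 CPM in Jarid2 KO. Cd3d and Cd3g were under 1 CPM in all 4 libraries, and Cd247 was at 17.02 and 12.8 CPM against 13.9 and 13.8 CPM. Of 16 T and NK cell genes 1 stood higher (Lck) and 1 lower (Nkg7) at an unadjusted p under 0.05. That is about the share over all tested genes, 6.01% higher and 5.93% lower, so nothing is read from it.

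Lists of genes of known role were then counted. They were chosen with earlier results of these data known. The innate lymphoid list also named the innate lymphoid-like class, so its count is a description. Of 17 innate lymphoid genes, 11 stood higher at an unadjusted p under 0.05 and 0 lower, and the list's median log2 difference was 0.64 against 0.00 over all tested genes, of which 6.01% stood higher and 5.93% lower at that p. Skap1, a T cell adaptor (chosen after its values were seen), was at 9.80 and 5.77 CPM in Control and 22.8 and 22.7 CPM in Jarid2 KO. Il1rl1, the interleukin-33 receptor, was at 3.32 and 4.37 CPM in Control and 11.4 and 11.3 CPM in Jarid2 KO. Bcl11b, a T and innate lymphoid transcription factor, was at 3.22 and 2.27 CPM against 5.98 and 6.95 CPM. Without class cells 2 of the list stood higher and 1 lower, with a median of -0.00.

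Imprinted genes, which are read from 1 parental copy and are often growth regulators, were counted in the same way. Of 16 tested, 8 stood higher at an unadjusted p under 0.05, 0 lower, with a median log2 difference of 0.36, and 8 again without the innate lymphoid-like cells, against 6.01% higher and 5.93% lower over all tested genes. None passed the FDR threshold. Meg3, a maternally expressed long non-coding RNA, stood at 4.70 and 6.53 CPM in Control and 11.1 and 17.05 CPM in Jarid2 KO. Dlk1 of the same imprinted cluster was at 0.914 and 0.989 CPM against 1.77 and 1.84 CPM. Igf2r, the receptor that clears insulin-like growth factor 2, was at 15.5 and 17.2 CPM against 27.1 and 36.5 CPM. For these 3 genes both Jarid2 KO libraries lay above both Controls.

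Airn is the long non-coding RNA that overlaps Igf2r (chr17:12741311-12859884 against chr17:12682406-12769706) on the opposite strand. It stood at 43.9 and 46.2 CPM in Control and 92.6 and 126.7 CPM in Jarid2 KO, a log2 difference of 1.27 (SE 0.10, edgeR FDR 0.066). Reads of the overlapping part cannot be assigned between Airn and Igf2r without the strand rule.

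Macrophage marker genes stood lower in Jarid2 KO, though none passed the FDR threshold. Of 8 tested macrophage markers, 7 stood lower at an unadjusted p under 0.05 and all 8 had both Jarid2 KO libraries below both Controls, with a median log2 difference of -1.58. Over all tested genes 5.93% stood lower at that p and 16.8% had both libraries below. The markers were scarce. C1qa (chosen after its values were seen) was at 0.872 and 1.72 CPM in Control and 0.209 and 0.466 CPM in Jarid2 KO. Hmox1, the highest, was at 2.85 and 4.13 CPM against 1.01 and 1.63 CPM. The 8 markers summed to 6.94 and 11.1 CPM in Control and 2.84 and 4.05 CPM in Jarid2 KO, and the part of such cells in other results was not tested.

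Further lists, though not all of the 32, are given likewise, and are read against the 6.01% higher and 5.93% lower over all tested genes. Of 18 HSC genes 5 stood higher and 2 lower at an unadjusted p under 0.05 (median 0.11). Hlf, a stem-cell transcription factor, was at 504.4 and 497.8 CPM in Control and 609.0 and 636.2 CPM in Jarid2 KO. Of 13 megakaryocyte genes tested, 2 stood higher and 5 lower (median -0.35), and Vwf is also on the HSC list. Of 16 erythroid genes 3 stood higher and 0 lower (median 0.50), all of them globins (Hba-a1, Hbb-bt and Hbb-bs). Of 17 myeloid genes 4 stood higher (Ly6c2, S100a8, S100a9 and Fcnb) and 2 lower (Prtn3 and Csf1r), with a median of -0.07, and Ly6c2, a monocyte surface gene, was at 3.88 and 5.87 CPM in Control and 10.5 CPM in both Jarid2 KO libraries. Of 11 dendritic genes tested 0 stood higher and 4 lower (Siglech, Clec9a, Itgax and Tcf4; median -0.13). Of 10 basophil and mast cell genes 0 stood higher and 3 lower (Fcer1a, Gata2 and Gzmb), with a median of -1.27. The list summed to 76.3 and 93.9 CPM in Control and 74.5 and 75.9 CPM in Jarid2 KO. Most of that sum was Gata2, at 60.9 and 69.2 CPM in Control and 56.8 and 60.2 CPM in Jarid2 KO. Fcer1a was scarce, at 0.181 and 1.37 CPM against 0.0498 and 0.200 CPM. Over the 2 members of at least 10 CPM the median was -0.03. Of 10 endothelial and stromal genes tested, Stab2 was the 1 with an unadjusted p under 0.05 (median 0.56). The 5 fetal genes tested had 2 higher and 0 lower: Hmga2, a chromatin protein of fetal stem cells, was at 36.5 and 43.9 CPM in Control and 53.1 and 70.7 CPM in Jarid2 KO, and Igf2bp3 at 11.2 and 10.7 CPM against 15.1 and 12.9 CPM. Of 16 mitosis genes and 12 B cell genes 0 passed an unadjusted p of 0.05, and of 17 DNA replication genes 1 stood lower (Pcna, -0.16), about the share over all genes.

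**Figure D4:**
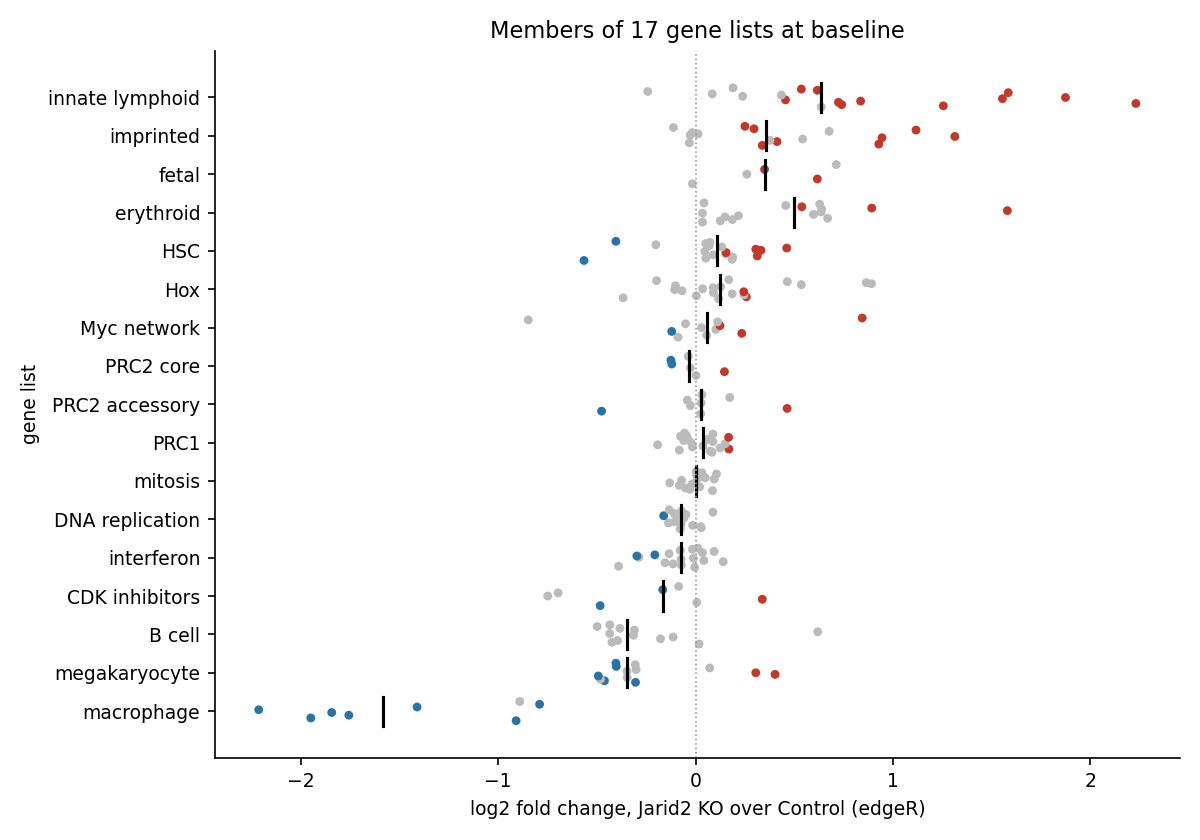
Log2 difference, Jarid2 KO minus Control, of each tested member of the gene lists, with the list's median marked. The innate lymphoid median lies at 0.64 and the imprinted median at 0.36, while the macrophage median lies at -1.58.

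A group of genes lay just outside the FDR threshold. Among genes of at least 10 CPM whose libraries did not overlap, the 8 with the smallest p on the higher side included Slc16a11, a monocarboxylate transporter family member, at 8.49 and 5.31 CPM in Control and 18.3 and 14.6 CPM in Jarid2 KO (log2 difference 1.28, edgeR FDR 0.066). Mn1, a leukaemia-linked transcriptional cofactor, was at 15.6 and 12.9 CPM against 23.9 and 22.8 CPM, and Tox, a lymphoid transcription factor, at 162.7 and 143.1 CPM against 219.9 and 222.4 CPM. Such separation was common in itself: 3519 of all tested genes (19.2%) had both Jarid2 KO libraries above both Controls, and 3079 (16.8%) had both below.

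On the lower side stood Cd48, a surface marker that is absent from the most primitive stem cells, at 92.5 and 76.4 CPM in Control and 66.3 and 51.6 CPM in Jarid2 KO (log2 difference -0.52, edgeR FDR 0.084). Hk3, a hexokinase of myeloid cells, was at 24.6 and 26.9 CPM against 15.9 and 15.8 CPM, Atp8b4, a phospholipid flippase, at 65.7 and 65.8 CPM against 41.2 and 33.4 CPM, and Tm6sf1 at 74.4 and 65.2 CPM against 49.9 and 40.4 CPM. Dntt, the lymphoid enzyme that adds bases to antigen-receptor joints, was at 284.3 and 163.7 CPM against 171.8 and 115.5 CPM. Its groups overlapped, but it was lower in both pairs, by a log2 difference of -0.73 in the male and -0.50 in the female pair. The fitted log2 difference was -0.62 (edgeR FDR 0.115).

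The same fit was run inside 12 classes with at least 50 cells in every library. The called shares were 0.304% of genes in HSC-like cells, 0.699% in DNA replication-like, 0.689% in mitosis-like, 0.651% in myeloid-like, 1.44% in early lymphoid-like, 1.13% in erythroid-like, 0.188% in megakaryocyte-like and 0.0635% in B cell-like cells. In classes without a name they were 1.07% in cluster 8, 0.64% in cluster 10, 0.613% in cluster 12 and 0.0135% in cluster 16. In all, 508 genes were called in at least 1 class. Of these, 20 were called in 7 or more classes, 10 in 8 or more and 4 in 9 or more. All classes were drawn from the same libraries, so calls of a gene in several classes are not independent.

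Airn was called in the most classes, higher in 11 of 12, with log2 differences of 0.51 to 2.79. Igf2r was called higher in 7, by 0.84 to 1.84. Il1rapl2, an interleukin-1 receptor accessory family member (chosen after its values were seen), was called higher in 9, by 0.95 to 2.38. Mycn was called higher in 8 classes, by 0.66 to 1.29, among them HSC-like cells (0.66, edgeR FDR 0.0077) and myeloid-like cells (1.29, edgeR FDR 0.0014). Hmga2 and Tox were called higher in 7 classes each, by 0.58 to 1.07 and by 0.36 to 0.84. Fosb, an immediate early gene, was called lower in 9, Atp8b4 in 8 and the splicing factor gene Srsf5 in 8, and Cd48 was called lower in 5. Libraries left out moved the number of calls: it ran from 310 without the female Jarid2 KO to 1844 without the male Ezh2 KO.

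**Figure D5:**
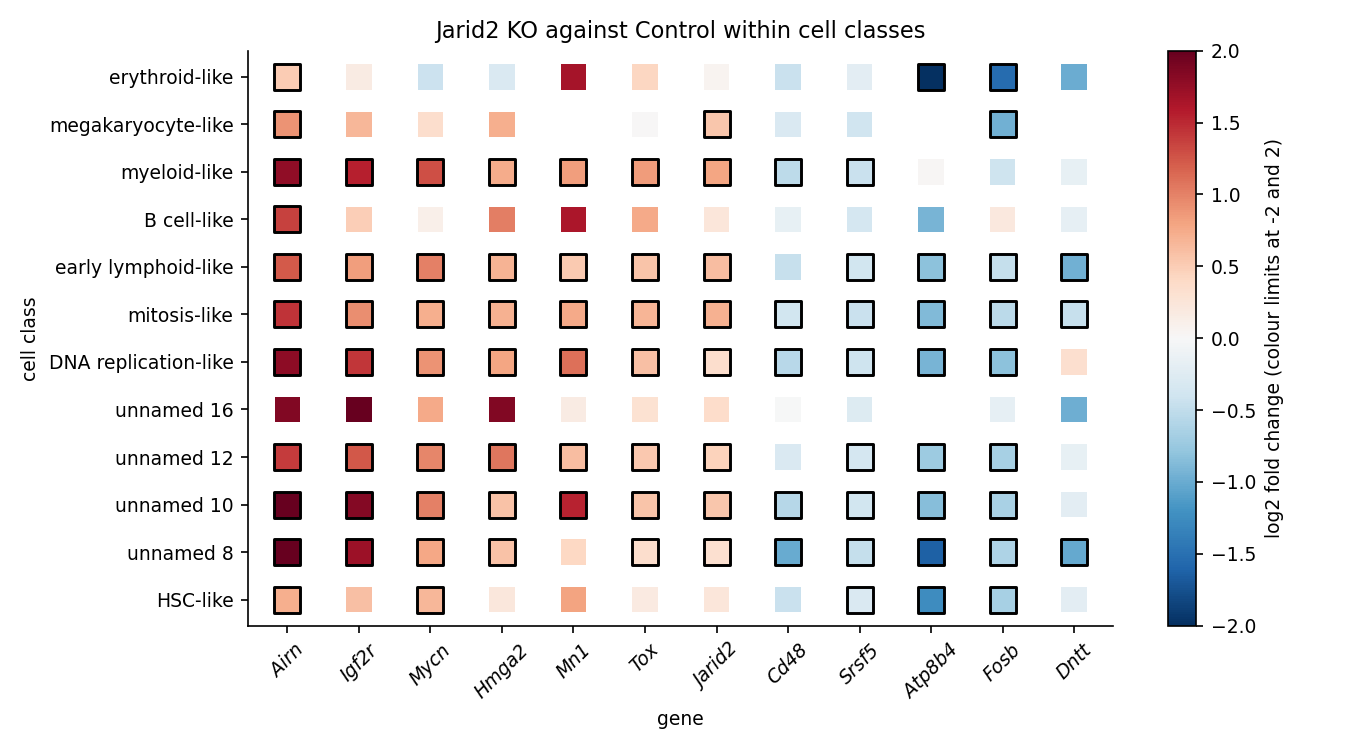
Log2 difference, Jarid2 KO minus Control, of the named genes inside each class, coloured from lower (blue) to higher (red), with a black outline where called. Airn is called higher in 11 classes, Mycn and Jarid2 in 8, and Atp8b4 and Srsf5 lower in 8. The classes share the same libraries and are not independent.

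Antibody tags, DNA-barcoded antibodies read in the same cells, gave protein levels on the cell surface. CD48 had a median of 862.5 and 648 tag UMIs per cell in the male and female Control and 548 and 433 in Jarid2 KO. Both Jarid2 KO libraries were below both Controls, a log2 ratio of -0.62, and as a share of all tag UMIs the means were 52.8% and 43.9%. Inside classes the 2 groups were apart, with Jarid2 KO lower, in 6 of 14. CD117, the protein of Kit, had medians of 224 and 238 in Control and 257 and 289 in Jarid2 KO (log2 ratio 0.24), and was apart and higher in 13 of 14 classes. Separation inside classes was common for other tags too: CD135 was apart and higher in 7 of 14, CD201 in 6 and the Sca1 tag in 5, and CD150 in 2, with 1 lower. For CD48 and CD117 the exact permutation test gave p = 0.3333, the smallest that 2 against 2 allows. In the innate lymphoid-like class CD117 medians were 32 and 60.5 in the male and female Control and 89 and 126 in Jarid2 KO. Each was below its library's median over all cells. The Sca1 tag there was at 1093 and 971.5 in Control and 1238 and 953 in Jarid2 KO. All tags summed to 15706601 and 15706584 UMIs in the Controls and 15411784 and 13563943 in Jarid2 KO.

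The same contrast was read in transplanted marrow, from other libraries. There, 52 of 15900 tested genes (0.327%) passed the edgeR test, where a single Control was taken to have the spread of the knockouts. Of 67 named genes tested there, 6 were called higher (Mycn, Hmga2, Airn, Igf2r, Mn1 and Slc16a11) and 1 lower (Ly6a). Mycn stood at 6.52 CPM in the Control and 17.7 and 18.3 CPM in the Jarid2 KO libraries (log2 difference 1.47, edgeR FDR 0.014). Hmga2 was at 7.81 CPM against 19.9 and 18.9 CPM (1.31, edgeR FDR 0.015), and Igf2r at 2.62 CPM against 11.5 and 13.3 CPM (2.24, edgeR FDR 0.014). For all 6 genes called higher, both transplant Ezh2 KO libraries also exceeded that Control, and for Ly6a both fell below it. In Ezh2 KO, Mycn stood at 27.4 and 26.3 CPM, Hmga2 at 54.8 and 56.9 CPM and Igf2r at 15.4 and 16.6 CPM. Ly6a was at 35.8 CPM in the Control, 20.0 and 20.3 CPM in Jarid2 KO and 22.1 and 23.8 CPM in Ezh2 KO. The part of that 1 Control library in these calls was not tested. Inpp4b was at 6.16 CPM in the Control against 5.80 and 5.63 CPM in Jarid2 KO. Icos was at 1.33 CPM against 1.81 and 2.31 CPM, and neither was called. A direct test of whether the effect differed between the experiments called 4 of 19076 genes (0.021%), none of them a named gene, and 0 of the 4 were still called without either baseline Control or either transplant Jarid2 KO library. No age is given for the transplant libraries. Transplanted and baseline cells differ in host, in the sorting gate for donor cells and in the version of the counting software. They also differ in the share of barcodes over the mitochondrial limit. It was 43.4% in the transplant Control and 36.6% and 37.4% in transplant Jarid2 KO, against 2.82% to 5.82% at baseline.

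Against Ezh2 KO at baseline, 1186 genes (6.46%) were called, and 29 of 68 named genes were among them, 15 higher and 14 lower in Jarid2 KO. This contrast reuses the Jarid2 KO libraries whose values chose many of the named genes, so nothing is read from that count. Stab2 was at 2.18 and 2.72 CPM in the male and female Ezh2 KO, Icos at 4.48 and 3.26 CPM, and Mycn at 29.6 and 34.3 CPM. Hmga2 was at 106.0 and 111.8 CPM in Ezh2 KO, above Jarid2 KO at 53.1 and 70.7 CPM. Both knockouts were above Control, at 36.5 and 43.9 CPM.

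Genes around Jarid2 itself (chr13:44730774-44921643) were counted by position. Within 10 Mb of it, 29 of 129 tested genes (22.5%) had an unadjusted p under 0.05, against 12.4% of all placed genes, and on chromosome 13 as a whole 16.03%. Gm34084, 250.4 kb away, had a log2 difference of -2.72 (edgeR FDR 0.066) at a mean of 0.687 CPM. The other tested genes within 500 kb were Gm47792 (-2.54), Gm34276 (2.23), Dtnbp1 (-0.05) and Mylip (-0.25), none of them called.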

How the data were processed

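Droplet 3′ gene-expression libraries (CITE-seq at baseline) were read from the deposited matrices. Their values are deposited as raw UMI counts for each gene and barcode, made by the authors with Cell Ranger 7.2.0 (baseline) and 6.1.2 (transplant), per the file headers. The submitters' processing notes list Cell Ranger 3.1.0, Seurat 3.0, Partek and mm10. How strand and introns were handled, and the annotation, is not given in the sources used here.

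Members and gene lists were chosen with earlier results of these data known. Kept cells were summed per library and compared with edgeR 4.0.16 quasi-likelihood tests in R 4.3.3 (TMM, filterByExpr, two-sided, Benjamini-Hochberg, FDR 0.05) over the 6 baseline libraries, with sex as a term. The same sex label in each group is the pairing, so it is the design's block. The contrast against Ezh2 KO came from the same fit, while the transplant fit had no sex term and the interaction fit had sex within baseline. Lists were described by counts and medians only. Shares and tags were tested with exact two-sided permutation tests. Nothing says whether replicates were separate mice beyond their sex, so p-values measure the spread between these libraries. Classes came from scanpy 1.11.5 and leidenalg 0.10.2 (2000 variable genes, 30 components, 15 neighbours, resolution 1). Doublets were kept, since Scrublet's automatic threshold marked 0 to 2 cells in the 4 compared libraries and so did not work, and 6.13% to 7.12% of cells with the highest scores were removed as an alternative. The edgeR test of Jarid2 KO against Control over all baseline cells was checked on simulated counts. These had a common spread for all genes, no sex effect and no change in cell types. That simulation did not cover the DESeq2, transplant, interaction, within-class or permutation tests.

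Named genes were those called with an established symbol, 32 fixed genes, the 8 highest-ranked uncalled genes per direction of at least 10 CPM whose groups did not overlap, and the member of at least 5 CPM with the smallest p in each of 32 lists. 1 called gene is not reported here. The CUT&Tag samples and the separately listed antibody samples were not analysed here. Promoter sequences are from RefSeq, GRCm38.p6.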

Additional observations from a re-analysis of the deposited data

Results flagged for a closer look

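The effect of Jarid2 KO differed between transplanted and baseline cells, by an edgeR interaction test at FDR 0.05, for 4 genes, none of which was called at baseline. None of the 4 was still called without either baseline Control, without either transplant Jarid2 KO library, or without the sex term. After transplantation minus at baseline, the log2 effect was -2.15 for Ninl, 2.30 for Pgr (the progesterone receptor), 5.43 for Cryab (a small heat-shock protein) and -1.66 for Bex4. Pgr differed by sex at baseline (10.3 and 51.3 CPM in the male and female Control), the transplant libraries carry no sex label, and the part of sex in its value was not tested. It stood at 0.964 CPM in the transplant Control, the 1 Control of that arm, and at 3.67 and 3.72 CPM in the transplant Jarid2 KO libraries. Cryab stood at 1.04 and 1.04 CPM in the baseline Controls and at 0.0283 CPM in the transplant Control, against 0.953 and 0.902 CPM in the transplant Jarid2 KO libraries.

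The male and the female pair moved in opposite directions for 9 named genes, and the difference between the pairs was not tested. The log2 difference in the male and the female pair was -0.11 and 0.054 for Ezh2, -0.023 and 0.028 for Eed, -0.078 and 0.0037 for Suz12, 0.0063 and -0.090 for Mtf2, 0.28 and -0.044 for Myc, 0.76 and -0.86 for Mpo, -0.10 and 0.020 for Inpp5d, -0.016 and 0.31 for Cd28, and -1.28 and 0.42 for Vpreb2. Mpo, the granule enzyme of myeloid progenitors, was at 67.9 and 150.4 CPM in the male and female Control and 115.3 and 83.1 CPM in Jarid2 KO.

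Class shares and tags also split by pair, again untested. In percentage points, Jarid2 KO minus Control, the male and female pairs gave -3.47 and 1.79 for B cell-like cells, -4.12 and 2.61 for early lymphoid-like cells, 0.106 and -0.295 for erythroid-like cells, -0.532 and 0.211 for dendritic-like cells (156 Control cells, with Ccl5, Klrk1 and Xcl1 among the leading genes; at 1.5 times the resolution there were 62 dendritic-like and 92 T and NK cell-like Control cells), 0.478 and -2.46 for cluster 8, and -0.071 and 0.369 for cluster 16. For tags the log2 ratios were -0.032 and 0.57 for CD135, 0.66 and -0.14 for CD150, and 0.19 and -0.034 for the Sca1 tag.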

How the results depend on the processing

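With 7 genes called across all cells, the fit on Control and Jarid2 KO alone gave 15, DESeq2 270 (128 higher, 142 lower), no filter beyond 1 count 39, and a mean of at least 10 CPM 3. Without the replicate block (no sex term) the count was 1. Without innate lymphoid-like cells it was 0 under both clusterings (2128 and 2131 genes at an unadjusted p under 0.05). Leaving out 1 library gave 2 to 38, with 38 without the male Control. Upper-quartile scaling, all barcodes and the strict cell filter gave 7 each, and removal of likely doublets gave 6, of which 5 were among the 7. In transplanted cells 52 became 208 with DESeq2, 11 at 10 CPM and 34 to 81 with 1 library left out. The interaction count of 4 became 84 with DESeq2, 0 at 10 CPM (503 genes at an unadjusted p under 0.05), 0 without the replicate block (993 such genes) and 0 to 5 with 1 library left out. The 508 genes called inside classes became 1267 at 1.5 times the resolution, and 310 to 1844 with 1 library left out. The myeloid-like share difference of -2.56 percentage points became -0.651 when clustered without genes at an unadjusted p under 0.05, where the class was smaller (a ratio of means of 0.475, against 0.642). As a share of tag UMIs, CD117 gave 0.35 and CD48 -0.27 on the log2 scale. For single named genes, 1064 values kept their side of the threshold, 50 passed it newly and 27 no longer passed it. These counts do not show whether uncalled genes kept their direction. With n = 2 per group, an exact test stops at 0.3333. The settings without innate lymphoid-like cells, with clustering that leaves genes out, and with classes of at least 40 cells were added after seeing the data.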

Other observations

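A class without a name, cluster 11, was made up almost wholly of female cells. It held 9.03% of cells in the female Control and 8.37% in the female Ezh2 KO, and 0.358% (27 of 7532 cells) in the female Jarid2 KO. It held 0 of 7162 cells in the male Control, which allows a share of up to 0.0419%, and 0 cells in the other 2 male libraries. When clustered without genes at an unadjusted p under 0.05, a class with similar leading genes (Ppp2r2b, Thbs1 and Fyb2) held 6.53%, 5.54% and 0.305% in the female Control, Ezh2 KO and Jarid2 KO. Fyb2, an adaptor family gene chosen after its values were seen, was at 31.7 CPM in the female Control and 27.0 CPM in the female Ezh2 KO, 2.05 CPM in the female Jarid2 KO, and 0.249 to 0.393 CPM in the 3 males. Within classes it was called lower in 7 of 9, with log2 differences of -4.52 to -2.12. Pgr, also among that class's leading genes, was at 51.3 CPM in the female Control and 36.5 CPM in the female Jarid2 KO, against 10.3 and 8.92 CPM in the males. Only 1 female library stands behind each genotype, so the drop in the female Jarid2 KO has no replicate.

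Elane, the neutrophil elastase gene, was at 10.9 CPM in the male Control and 57.1 to 64.0 CPM in the other 3 compared libraries, so the male Control stood apart on this gene.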
